A study of Triticum aestivum with 27 samples.

Results

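The change of the transcriptome of Zhoumai18 spikes over the first 48 h of wetting was described here gene by gene, with 3 RNA-seq libraries at 48 h set against 3 at 0 h. Zhoumai18 is a white-grained wheat variety that is highly susceptible to pre-harvest sprouting (PHS), the germination of grains on the mother plant in humid weather. The genes were chosen by level alone: a gene was included if it had at least 1 FPKM (fragments per kilobase of transcript, scaled for library depth) in at least 3 of these 6 libraries. By this rule 52192 of the 153699 genes of the table were included, that is 34.0%, of which 42816 were annotated genes and 9376 were new loci that the study added to the annotation. Of the rest, 37399 genes had no counts in the 6 libraries and 64108 had counts but did not reach the limit.

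Spikes were cut at the wax-ripening stage and soaked in water for 4 h. The 48 h group was then kept moist in a humid chamber for 48 h, whereas the 0 h group was frozen right after the soak, so both groups had taken up water. The study had 3 varieties, Zhoumai18, the resistant white-grained Baipimai and the highly resistant red-grained Shengsimai, each sampled at 0, 48 and 96 h with 3 libraries. Each library came from another spike, so the 48 h spikes were not the 0 h spikes at a later time, and every variety is represented by a single line grown once. Whole spikes were sampled, so the RNA came from grains together with chaff and rachis. In such bulk samples, fewer cells of a type and less RNA per cell cannot be told apart.

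In a ripe wheat grain the embryo and the aleurone layer are alive, while the starchy endosperm is dead and filled with starch and storage proteins. Abscisic acid keeps the maturing grain dormant, through factors such as VP1 and the bZIP proteins that bind abscisic acid response elements, and it drives the proteins that protect dry cells. When a grain that has lost its dormancy takes up water, the embryo makes gibberellin, the aleurone secretes hydrolases that dissolve walls, starch and protein, and cells of the embryo expand and later divide. Common wheat carries the A, B and D genomes, so most genes have close copies on related chromosomes, and reads can be shared among copies. Values of single copies are therefore uncertain to that extent.

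The 3 libraries at 48 h held 47944660 to 50076022 counts, and the 3 at 0 h held 46079889 to 50332053, so depth was alike. The 50 most abundant genes took 9.99 to 11.1% of the counts at 48 h, against 17.2 to 17.9% at 0 h, and more genes had counts at 48 h (96779 to 97038) than at 0 h (92344 to 93877). Markers of green tissue, which chaff and rachis could supply, were at or near 0 at both times. Of 52 genes of photosynthesis, 38 had a mean of 0 FPKM at 48 h and 39 at 0 h, the highest mean was 0.107 FPKM at 48 h and 0.0802 FPKM at 0 h, and their summed level was 0.489 to 0.514 FPKM at 48 h, against 0.154 to 0.498 FPKM at 0 h. At 96 h the same sum was 52.6 to 54.3 FPKM.

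The Zhoumai18 libraries of the 2 times also differed in a way that the other varieties showed less. A total of 470 genes had at least 100 counts in every Zhoumai18 library at 48 h and at most 2 in every one at 0 h, and 280 genes had the opposite pattern. The same counts were 228 and 7 genes in Baipimai and 62 and 20 genes in Shengsimai. The next step in Zhoumai18 itself, from 48 to 96 h, had more gains and fewer losses. By the same rule 622 genes were seen at 96 h and not at 48 h, 33 of them new loci. The opposite pattern was that of 56 genes, 21 of them new loci. Of the 280 genes seen in Zhoumai18 at 0 h and not at 48 h, 203 were new loci, 250 were also at or under 2 counts in every 96 h library, 57 had at least 100 counts in all 18 libraries of Baipimai and Shengsimai, and 68 had at most 2 counts in all 18. Of the 470 genes seen at 48 h and not at 0 h, 317 were new loci, 294 reached 100 counts in every 96 h library, 49 had at least 100 counts in all 18 libraries of Baipimai and Shengsimai, and 78 had at most 2 in all 18. Whether the 0 h and the 48 h spikes came from the same plant material was not tested, and a difference in material, such as another seed lot or exchanged samples, cannot be told apart from the effect of time. This holds for every value of 48 h against 0 h given here and for every difference between varieties. The total counts are given with these genes and without them.

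**Figure D1:**
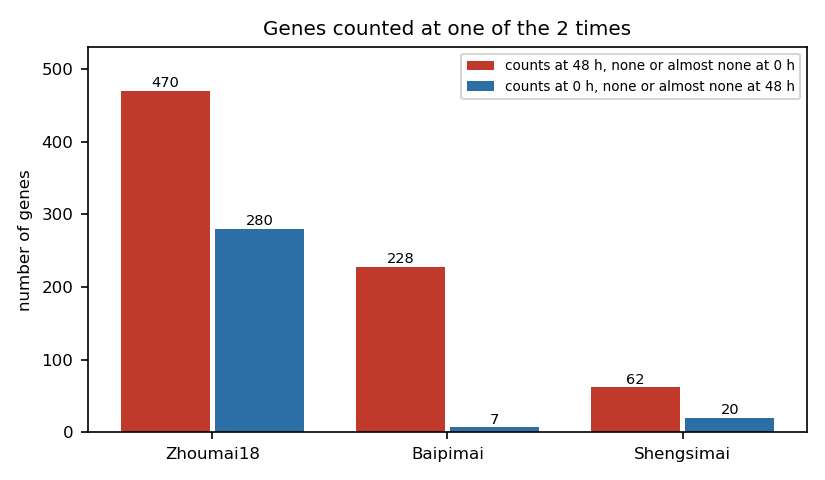
Number of genes (vertical axis) with at least 100 counts in every library of one time and at most 2 in every library of the other, 1 pair of bars for each variety. The bar of genes counted at 48 h and not at 0 h stands left of the opposite one: 470 and 280 genes in Zhoumai18, 228 and 7 in Baipimai, 62 and 20 in Shengsimai.

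Between 48 h and 0 h, the level of most genes moved. Genes were tested on the deposited counts with edgeR's quasi-likelihood test, fitted on all 27 libraries of the study, with p-values adjusted by Benjamini-Hochberg over the 52192 genes. At an adjusted p under 0.05, 22265 genes (42.7%) were higher and 19571 genes (37.5%) were lower at 48 h, so that 80.2% of the genes tested were called in one direction or the other. With a change of at least 2-fold as well, 12393 genes (23.7%) were higher and 9410 genes (18%) were lower, and 20033 calls (47.9% of all calls) were of less than 2-fold. In 25855 genes (49.5%) every 48 h library had a higher FPKM than every 0 h library, and in 16112 genes (30.9%) every one had a lower FPKM. The median log2 fold change was 0.08, and 90% of the genes lay between -2.44 and 2.99. Genes at least 2-fold higher were mostly rare transcripts at 0 h, with a median of 3.42 FPKM at 48 h, against 0.762 FPKM at 0 h, while genes at least 2-fold lower had a median of 1.97 FPKM at 48 h, against 6.66 FPKM at 0 h.

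The replicates of each group were separate spikes of one variety. The p-values rest on the spread between replicate spikes within the 9 groups of the fit (27 libraries, 18 residual degrees of freedom). That spread thus includes the other varieties and 96 h, and is not that of the Zhoumai18 spikes at 48 h and 0 h alone. Of all calls, 53.2% were higher at 48 h, against 60.9% with scaling by total counts and 61.6% with limma on log2(FPKM + 1), where the median of all genes stood at 0.26 and 0.21, so that single changes of that size have no sure sign. The filter let in 7445 genes through the 48 h libraries alone and 2920 through the 0 h libraries alone, and these had to differ in level. The lists below are counted without such members unless stated. The counts and shares over all genes, also those by chromosome, by neighbour and for new loci, include them. Without the 661 tested genes detected at one time only, an alternative chosen after seeing the data, 21850 genes were higher and 19325 were lower.

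Of the 52192 genes, 250 carried a gene name that the deposited annotation or the RefSeq gene table paired with their identifier. Among these, 98 (39.2%) were higher at 48 h, 105 (42.0%) were lower and 47 did not pass the test, with a median log2 fold change of -0.08. The named genes described next were taken by a fixed rule (the largest rises and falls among named genes of at least 10 FPKM) and from gene lists of pathways of germination and grain filling. Gene lists are given with their counts and, in part, their medians, to be read against the 42.7% higher, the 37.5% lower and the median of 0.08 over all genes tested. Those values include the genes that passed the filter through one time alone, so they are only a rough measure for lists counted without such members.

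The named gene with the largest fall belongs to late seed maturation. EM (TraesCS1B01G237500), which encodes the Em protein, a late embryogenesis abundant protein of dry embryos, had 47.3, 41.6 and 43.1 FPKM at 48 h, against 785.5, 1831 and 1666 FPKM at 0 h. All 48 h spikes were far below all 0 h spikes, and the first 0 h spike held less than the other two. The log2 fold change was -5.22 ± 0.23 (SE; adjusted p = 6.34e-18), and at 96 h the level was 0.398 ± 0.123 FPKM (SD, n = 3). The 2 dehydrins of the same list were low at both times and fell as well: Wcor410c averaged 0.524 ± 0.123 FPKM at 48 h and 1.48 ± 0.341 FPKM at 0 h, and WCOR410 averaged 3.01 ± 0.225 FPKM at 48 h and 5.60 ± 1.34 FPKM at 0 h. Wcor410c passed the filter through the 0 h libraries alone. The summed level of the 3 listed genes was 45.2 to 50.9 FPKM at 48 h, against 794.5 to 1837 FPKM at 0 h, nearly all of it EM.

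Of the 6 tested abscisic acid genes, 4 fell and 2 rose. EmBP-1a (TraesCS5B01G470600), a bZIP factor named for its binding to the Em promoter, had 4.06, 3.89 and 3.25 FPKM at 48 h, against 32.0, 29.9 and 31.2 FPKM at 0 h. The times did not overlap, and the fold change was -3.25 ± 0.10 (log2, SE; adjusted p = 1.68e-21). ABFB (TraesCS3A01G371800), another bZIP factor of abscisic acid response, had 25.8, 26.2 and 24.5 FPKM at 48 h, against 80.7, 71.3 and 74.2 FPKM at 0 h, a log2 fold change of -1.76 ± 0.06 (SE; adjusted p = 1.68e-19). Vp-1A (TraesCS3A01G417300), the copy on chromosome 3A of VP1, the B3-domain factor that keeps grains dormant, had 8.96, 8.51 and 8.67 FPKM at 48 h, against 21.7, 24.6 and 24.0 FPKM at 0 h. Its log2 fold change was -1.63 ± 0.07 (SE; adjusted p = 2.1e-18), with every 48 h spike below every 0 h spike, and its mean was lower again at 96 h, at 4.47 FPKM.

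The 4 falls were of at least 2-fold and both rises of less, and the median of the list was -1.41. SnRK2.4, a protein kinase of the family that acts in osmotic stress and abscisic acid signalling, fell in its 3B copy (12.8 ± 1.63 FPKM at 48 h and 25.2 ± 2.41 FPKM at 0 h; log2 fold change -1.19), whereas its 3A copy had 10.8 ± 0.824 FPKM at 48 h and 7.59 ± 1.13 FPKM at 0 h (SD, n = 3; log2 fold change 0.30). TaABI1, named after a protein phosphatase that restrains abscisic acid signalling in Arabidopsis, averaged 18.3 ± 0.934 FPKM at 48 h and 13.5 ± 0.481 FPKM at 0 h, a log2 fold change of 0.24. Both small rises lost their call in other fits. TaABI1 had an adjusted p of 0.149 with no filter and of 0.0504 without 48 h replicate 1. SnRK2.4 on 3A had 0.119 with no filter, 0.069 with only the groups compared, 0.1 without 0 h replicate 2 and 0.0604 without 48 h replicate 2.

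The other large falls among named genes were in genes of several kinds. Hsp90.1-A1 (TraesCS2A01G033700), a cytosolic chaperone, had 2.20, 2.30 and 3.01 FPKM at 48 h, against 36.8, 44.1 and 52.3 FPKM at 0 h (log2 fold change -4.35 ± 0.11, SE; adjusted p = 1.18e-22). Its B-genome copy Hsp90.1-B1 had 1.20, 1.15 and 1.67 FPKM at 48 h, against 14.1, 17.2 and 18.4 FPKM at 0 h (log2 fold change -3.83 ± 0.12, SE), so both tested heat shock genes fell. SOD1.1 (TraesCS7B01G197300), a superoxide dismutase, had 0.320, 0.499 and 0.434 FPKM at 48 h, against 13.7, 13.7 and 14.7 FPKM at 0 h. It was close to the detection limit in every 48 h spike, with a log2 fold change of -5.198 ± 0.16 (SE; adjusted p = 5.78e-21). SOD1.1 passed the filter through the 0 h libraries alone, so its direction was set by the filter and the p-value is no test of the direction. Esi2 fell by 3.23 on the log2 scale (8.49 ± 0.0289 FPKM at 48 h and 69.6 ± 2.69 FPKM at 0 h), HSD11BL by 2.77 (66.6 ± 2.29 FPKM at 48 h and 395 ± 13.6 FPKM at 0 h) and the zinc-finger gene WZF1 by 2.52 (6.86 ± 0.584 FPKM at 48 h and 34.2 ± 10.1 FPKM at 0 h). NAC2D, a NAC-family transcription factor, had 57.7, 58.1 and 54.2 FPKM at 48 h, against 217, 269.5 and 254 FPKM at 0 h, a fall of 2.32 on the log2 scale.

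**Figure D2:**
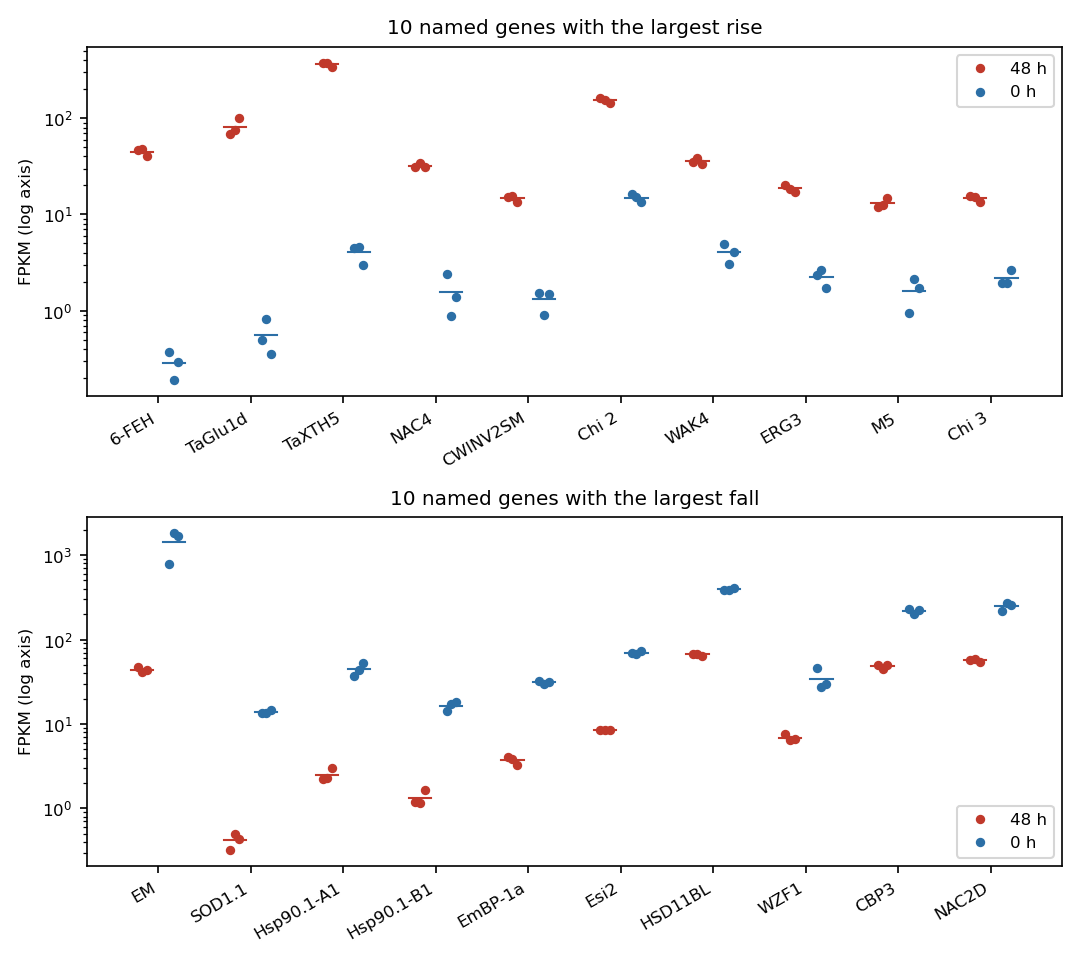
FPKM on a log axis of the named genes with the largest rises and falls, at 48 h (left, red) and at 0 h (right, blue), 1 point per library with the mean as a line. The 3 libraries at 48 h lie apart from the 3 at 0 h in every gene drawn; 6-FEH lies above 40 FPKM at 48 h and below 0.4 FPKM at 0 h, and EM below 48 FPKM at 48 h and above 785 FPKM at 0 h.

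The 3 largest rises among named genes of at least 10 FPKM were those of 6-FEH, TaGlu1d and TaXTH5. 6-FEH (TraesCS2A01G588300), a fructan exohydrolase that releases fructose from fructans, had 46.8, 48.2 and 40.3 FPKM at 48 h, against 0.370, 0.190 and 0.291 FPKM at 0 h. It was barely detected in any 0 h spike, and its log2 fold change was 7.09 ± 0.18 (SE; adjusted p = 3.64e-23). It passed the filter through the 48 h libraries alone, so its direction was set by the filter and the p-value is no test of the direction. At 96 h 6-FEH averaged 3.16 FPKM. TaXTH5 (TraesCS7A01G427600), a xyloglucan endotransglucosylase/hydrolase of the kind that loosens and rebuilds growing walls, had 376, 375 and 343 FPKM at 48 h, against 4.48, 4.59 and 3.02 FPKM at 0 h. It was the most abundant of the 10 named genes with the largest rises, with a log2 fold change of 6.30 ± 0.14 (SE; adjusted p = 3.53e-24), and its mean at 96 h was 60.8 FPKM. CWINV2SM, annotated by its name as a cell-wall invertase, which splits sucrose, had 15.1, 15.4 and 13.6 FPKM at 48 h, against 1.51, 0.907 and 1.504 FPKM at 0 h (log2 fold change 3.28 ± 0.15, SE). The acid invertase AInv, named after its values were seen, averaged 3.68 ± 0.179 FPKM at 48 h and 0.844 ± 0.0737 FPKM at 0 h. AInv too passed the filter through the 48 h libraries alone.

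TaGlu1d (TraesCSU01G036600) had 68.1, 75.5 and 100.5 FPKM at 48 h, against 0.495, 0.824 and 0.358 FPKM at 0 h. It encodes a beta-glucosidase that frees benzoxazinoids, the defence compounds of young cereal shoots, and so does not act on walls although it stands in the list of wall enzymes and glucanases. Its log2 fold change was 6.98 ± 0.57 (SE; adjusted p = 5.3e-11) and its mean at 96 h was 772 FPKM. It passed the filter through the 48 h libraries alone. Of the other 5 tested genes of the list, 3 rose and 2 fell, with a median of 1.06. TaXTH4 rose in its 6A copy (37.9 ± 1.71 FPKM at 48 h and 15.8 ± 7.31 FPKM at 0 h; log2 fold change 1.06) and in its 6D copy (3.65 ± 0.268 FPKM at 48 h and 1.44 ± 0.496 FPKM at 0 h; 1.14). Glc2 fell by 0.63 on the log2 scale, although its libraries overlapped, and Glc1, at 25.7 ± 0.923 FPKM at 48 h and 25.8 ± 5.09 FPKM at 0 h, had an adjusted p of 0.0484 that did not hold in most other fits.

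The 8 listed gibberellin genes, which are those with a usable name, were scarcely expressed at either time. Other genes of gibberellin synthesis and signalling were not examined, so the level of the whole pathway is not known from these values. Only 3 of the 8 listed genes reached the limit, each through the libraries of one time alone, so that their direction was set by the filter. The 2 that were higher at 48 h are diterpene synthases, whose family makes the gibberellin precursor but also other diterpenoids. TaKSL3, named as a kaurene synthase-like gene, had 2.13, 2.68 and 2.79 FPKM at 48 h, against 0.135, 0.0830 and 0.111 FPKM at 0 h (log2 fold change 4.28 ± 0.23, SE). TaCPS2, named as a copalyl diphosphate synthase, had 1.69, 2.14 and 1.41 FPKM at 48 h, against no counts at 0 h. Against a limit of 3 counts over the 0 h group, that is at least 184-fold higher at 48 h. GA2ox5-2, whose family inactivates gibberellins, averaged 0.244 ± 0.0267 FPKM at 48 h and 1.49 ± 0.202 FPKM at 0 h (log2 fold change -2.77). The gibberellin 20-oxidases, which make the precursors of active gibberellins, stayed below the limit: GA20ox1d had 0.331, 0.915 and 0.961 FPKM at 48 h, against 0.0501, 0.0186 and 0.0496 FPKM at 0 h, and GA20OX1-A averaged 0.309 FPKM at 48 h and 0.284 FPKM at 0 h. At 96 h these 2 genes averaged 5.08 and 6.01 FPKM.

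Hydrolases of reserve breakdown moved in both directions. AMY4, an alpha-amylase and the only named starch-degrading gene, had 5.82, 6.43 and 6.12 FPKM at 48 h, against 3.49, 2.85 and 2.45 FPKM at 0 h. The times did not overlap, and the log2 fold change was 0.86 ± 0.10 (SE; adjusted p = 1.14e-08). CBP3 (TraesCS6B01G050700), named as a carboxypeptidase, an enzyme class that cuts amino acids from storage proteins, had 50.2, 44.8 and 49.9 FPKM at 48 h, against 232, 200.6 and 222.6 FPKM at 0 h. It fell by 2.38 ± 0.08 on the log2 scale (SE; adjusted p = 1.11e-20), and its mean at 96 h, 760 FPKM, lay above both. Genes of starch synthesis were low, and of 3 tested 2 rose: the branching enzyme Sbe2 averaged 25.5 ± 2.56 FPKM at 48 h and 7.15 ± 0.293 FPKM at 0 h (log2 fold change 1.63), and the starch synthase wSs2a-1 averaged 3.37 ± 0.279 FPKM at 48 h and 1.53 ± 0.167 FPKM at 0 h (0.94). Sbe1A did not pass the test, with a log2 fold change of -0.25 (adjusted p = 0.0737).

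Transcripts of storage proteins were still among the most abundant at 48 h. The 2 Glo-3A genes, which encode 7S globulins of the embryo and aleurone, had 5102, 4686 and 4424 FPKM at 48 h, against 7126, 6508 and 6521 FPKM at 0 h for TraesCS4A01G296100, and 4706, 4364 and 4183 FPKM at 48 h, against 6674, 6111 and 6340 FPKM at 0 h for TraesCS4A01G296000. Both fell by a like amount, 0.70 ± 0.08 and 0.73 ± 0.08 on the log2 scale (SE), and they were the 2 most abundant genes at 48 h. GluD3-3, a low-molecular-weight glutenin subunit of the endosperm, had 15.3, 10.9 and 12.7 FPKM at 48 h, against 22.3, 38.1 and 37.3 FPKM at 0 h, a log2 fold change of -1.52 ± 0.17 (SE; adjusted p = 5.39e-09). The avenin-like genes avnla and avnlb did not pass the test, with log2 fold changes of -0.03 and -0.08 and overlapping libraries. In all, 3 of 5 tested storage protein genes fell and none rose, with a median of -0.70, and the summed level was 8636 to 9842 FPKM at 48 h, against 12680 to 13830 FPKM at 0 h.

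The most abundant transcripts at 0 h were 2 unnamed genes on chromosomes 5B and 5D. TraesCS5B01G146000 had 0, 1036 and 600 FPKM at 48 h, against 47800, 39740 and 43880 FPKM at 0 h, and TraesCS5D01G145200 had 0, 714 and 435 FPKM at 48 h, against 30440, 26470 and 29000 FPKM at 0 h. Together they took 0, 0.0665 and 0.0393% of all counts at 48 h, against 3.04, 2.64 and 2.83% at 0 h. The first 48 h library held no count of either, while the other two held 7917 or more of each. Whether this spread lies in the spikes or in the processing was not tested. The log2 fold changes were -6.55 ± 1.52 and -6.44 ± 1.35 (SE; adjusted p = 0.000411 and 9.47e-05), and ran from -7.42 without 48 h replicate 2 to -5.96 without 48 h replicate 1 for the first gene, and from -7.27 to -5.86 for the second. The other genes among the 5 most abundant at either time fell by about as much as the globulins: TraesCS4B01G017500 averaged 4201 ± 203 FPKM at 48 h and 7582 ± 234 FPKM at 0 h, TraesCS4D01G016000 3789 ± 228 FPKM at 48 h and 6361 ± 290 FPKM at 0 h, and TraesCS4D01G016100 3890 ± 202 FPKM at 48 h and 5603 ± 298 FPKM at 0 h.

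Inhibitors of proteases and amylases moved in both directions. Of 9 tested, 2 (WRS1 on 5B and Itrl-1) passed the filter through the 0 h libraries alone. Of the other 7, 3 fell, 1 rose and 3 did not pass the test, with a median of -0.38. The members that were lower at 48 h were low at both times: the serpins WSZ1c (1.25 ± 0.0705 FPKM at 48 h and 5.999 ± 1.13 FPKM at 0 h) and WSZ2a (1.55 ± 0.200 FPKM at 48 h and 3.95 ± 0.839 FPKM at 0 h), WRS1 on 5B, WZCI, and Itrl-1. Itrl-1 had no counts at 48 h, against 3.24, 3.66 and 3.29 FPKM at 0 h, that is at least 76.3-fold lower at 48 h. The abundant members behaved otherwise. wali6, of a family known from aluminium-treated wheat roots, rose to 259, 196 and 164 FPKM at 48 h, against 91.6, 65.1 and 75.2 FPKM at 0 h (log2 fold change 1.22), and the most abundant, wrsi5-1, had 767 ± 151 FPKM at 48 h and 792 ± 63.2 FPKM at 0 h (log2 fold change -0.24, adjusted p = 0.0621, which fell under 0.05 in several other fits).

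Most tested defence genes were higher at 48 h. Of 11 tested, 3 (PR5, OXO1 and glp2b) passed the filter through the 48 h libraries alone and 1 (WLTP1) through the 0 h libraries alone. Of the other 7, 5 rose, 1 fell and 1 did not pass the test, with a median of 2.04. The summed level of the 19 listed genes was 204 to 225 FPKM at 48 h, against 35.9 to 41.0 FPKM at 0 h, and 747 to 890 FPKM at 96 h. Most of it was Chi 2 (TraesCS2D01G033100), a chitinase, with 163, 153 and 145 FPKM at 48 h, against 16.4, 15.1 and 13.5 FPKM at 0 h (log2 fold change 3.16 ± 0.09, SE; adjusted p = 7e-22). Chi 3, another chitinase, averaged 14.7 ± 1.17 FPKM at 48 h and 2.19 ± 0.406 FPKM at 0 h, and the thaumatin-like gene PR5 averaged 5.48 ± 0.827 FPKM at 48 h and 0.227 ± 0.169 FPKM at 0 h. OXO1, an oxalate oxidase of the germin family, which is known from germinating cereal embryos, had 1.07, 1.37 and 1.01 FPKM at 48 h and no counts at 0 h, that is at least 36.5-fold higher at 48 h, and it averaged 66.5 FPKM at 96 h. The germin-like gene glp2b on 4B averaged 1.75 ± 0.659 FPKM at 48 h and had counts at 0 h in replicate 2 alone (0.0759 FPKM), and 3 LTP2 genes, which encode lipid transfer proteins, rose by 1.92 to 2.30. Both exceptions that fell, WLTP1 (0.468 ± 0.0783 FPKM at 48 h and 3.503 ± 0.294 FPKM at 0 h) and ltp9.4 (4.25 ± 0.254 FPKM at 48 h and 7.53 ± 2.12 FPKM at 0 h), carry names of lipid transfer proteins too, and the chitinase gene Cht4 did not pass the test (log2 fold change 0.13, adjusted p = 0.6).

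Histone and cell cycle genes were at very low levels at 0 h. Of the 10 listed genes 5 were tested, and 4 of these, all histone genes, passed the filter through the 48 h libraries alone and so had to be higher. The summed level of all 10 was 14.4 to 17.4 FPKM at 48 h, against 3.59 to 4.09 FPKM at 0 h. The 3 tested H2A-9 genes, which encode histone H2A, a component of new chromatin in dividing cells, averaged 1.61 to 3.62 FPKM at 48 h and 0.0216 to 0.178 FPKM at 0 h. Their levels at 48 h were small beside those at 96 h, where they averaged 39.2 to 60.1 FPKM. At such low counts single 0 h libraries moved the fold changes: that of TraesCS6B01G049400 was 3.95, and 4.85 without 0 h replicate 1, and that of TraesCS6B01G049500 was 5.40, and 8.12 without 0 h replicate 2, the only 0 h library with counts of it. cdc2TaA, a cyclin-dependent kinase and the remaining tested member, averaged 3.75 ± 0.488 FPKM at 48 h and 2.08 ± 0.333 FPKM at 0 h (log2 fold change 0.64 ± 0.16, SE; adjusted p = 0.000783). The alpha-tubulin genes TUBA-4B, named after their values were seen, rose on 5A, 5B and 5D alike, by 1.59, 1.90 and 1.69 on the log2 scale, for example on 5D with 40.1, 49.6 and 47.9 FPKM at 48 h, against 12.7, 12.4 and 11.9 FPKM at 0 h.

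Genes of senescence and nitrogen remobilisation mostly fell. Of 6 tested, 4 fell, 1 rose and 1 did not pass the test, with a median of -0.84. The summed level of the 7 listed genes was nevertheless higher at 48 h, at 395 to 414 FPKM, against 223 to 248 FPKM at 0 h. Most of it was TaSAG6. LLS1, named after the lethal leaf spot gene of maize, which acts in chlorophyll breakdown, averaged 6.53 ± 0.484 FPKM at 48 h and 19.0 ± 1.96 FPKM at 0 h (log2 fold change -1.74), TaSAG1 averaged 6.997 ± 0.267 FPKM at 48 h and 19.9 ± 0.446 FPKM at 0 h (-1.71), and the asparagine synthetase ASN1 averaged 2.61 ± 0.136 FPKM at 48 h and 5.14 ± 0.440 FPKM at 0 h (-1.18). TaSAG6, the most abundant member, went the other way, with 352, 370 and 350 FPKM at 48 h, against 169, 155 and 159 FPKM at 0 h (log2 fold change 0.95 ± 0.06, SE; adjusted p = 3.16e-14). Among transport genes, the tonoplast aquaporin gamma-TIP rose to 53.9 ± 2.21 FPKM at 48 h, against 28.0 ± 8.15 FPKM at 0 h (0.74), and the aquaporin AQP4 had a log2 fold change of 0.29 (adjusted p = 0.227). The jasmonate gene aoc2, an allene oxide cyclase, rose by 1.16 on the log2 scale.

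**Figure D3:**
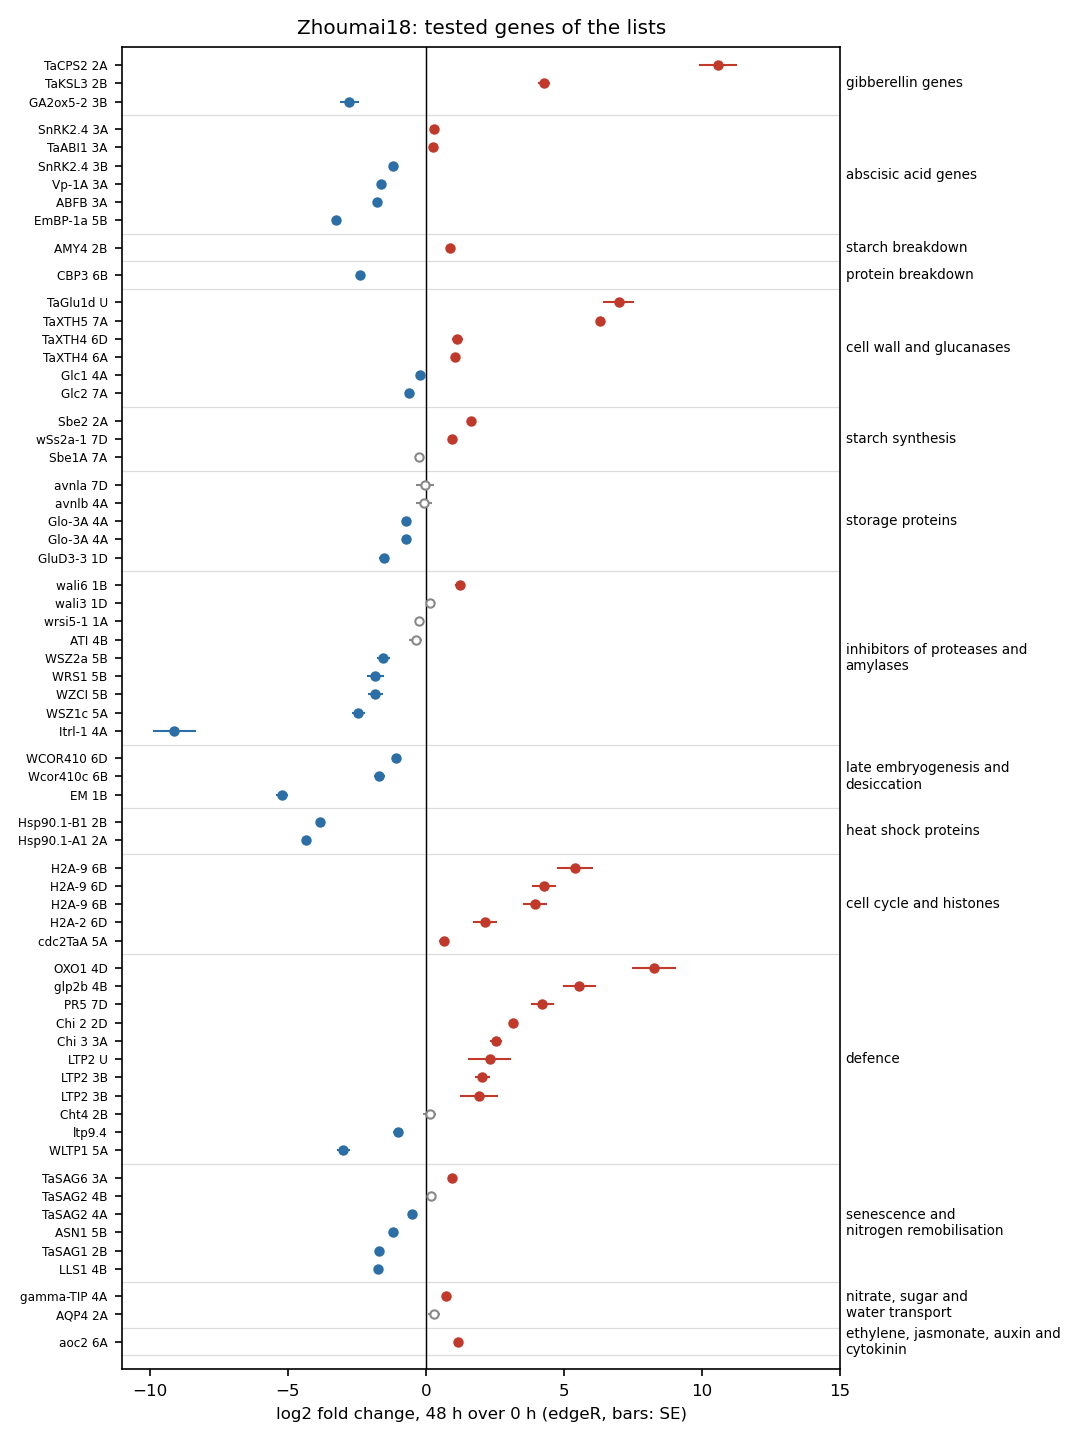
Log2 fold change, 48 h over 0 h (horizontal axis), of the tested members of each gene list in Zhoumai18, 1 point per gene with its SE as a bar, red for called rises, blue for called falls and open grey where the test was not passed. The abscisic acid genes lie on both sides of 0, and EM lies farthest left among late embryogenesis genes at -5.22. Genes that passed the filter through one time alone, among them all 4 histone genes, are drawn too, and their side of 0 was set by the filter. The values of TaCPS2, OXO1 and Itrl-1, which have no counts at one time, depend on the prior count of the fit.

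Of the other genes with the largest rises, NAC4 (TraesCS3A01G339600), a NAC-family transcription factor, had 31.3, 34.0 and 31.1 FPKM at 48 h, against 2.43, 0.891 and 1.38 FPKM at 0 h. It was 4.14 ± 0.24 higher on the log2 scale (SE; adjusted p = 2.93e-15) and averaged 1.57 FPKM at 96 h. WAK4, named as a wall-associated kinase, averaged 35.9 ± 2.53 FPKM at 48 h and 4.03 ± 0.945 FPKM at 0 h (2.95), ERG3 on 2B averaged 18.7 ± 1.61 FPKM at 48 h and 2.24 ± 0.466 FPKM at 0 h (2.85), and M5 averaged 13.2 ± 1.48 FPKM at 48 h and 1.61 ± 0.607 FPKM at 0 h (2.81). Chosen after their values were seen, the 3 ATG8 genes, whose products build autophagosomes, fell on 2A, 2B and 2D by 1.13, 1.86 and 1.68 on the log2 scale, and the domestication gene Q, an AP2-family factor, averaged 14.1 ± 1.08 FPKM at 48 h and 2.59 ± 0.503 FPKM at 0 h. The unnamed loci with the largest rises and falls by the rule were new loci with no counts at one time. newGene_21381 averaged 29.7 FPKM at 48 h and 0 FPKM at 0 h (at least 4348-fold higher), newGene_30265 16.0 FPKM at 48 h and 0 FPKM at 0 h (at least 1525-fold higher), newGene_6333 0 FPKM at 48 h and 14.9 FPKM at 0 h (at least 3429-fold lower) and newGene_40501 0 FPKM at 48 h and 13.3 FPKM at 0 h (at least 2947-fold lower).

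The genes that the study named in a resistance locus on chromosome 3D differed in level in these spikes. TraesCS3D01G466100 had 9.399, 10.6 and 11.1 FPKM at 48 h, against 6.37, 6.43 and 6.47 FPKM at 0 h, a log2 fold change of 0.49 ± 0.08 (SE; adjusted p = 3.04e-06). This change did not differ past the threshold from that in Baipimai (difference 0.24 ± 0.11, adjusted p = 0.0827) or in Shengsimai (difference -0.09 ± 0.11, adjusted p = 0.543). TraesCS3D01G468500 was below the limit, with 0, 0 and 0.0322 FPKM at 48 h, against 0.357, 0.602 and 0.133 FPKM at 0 h, while in Shengsimai it averaged 25.9 FPKM at 48 h and 37.6 FPKM at 0 h. TraesCS3D01G468400 had no counts at either time in Zhoumai18.

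Whether the response of the susceptible variety differed from that of the resistant ones was tested as the difference between the 48 h to 0 h changes, on the same genes and in the same fit. Both differences use the same Zhoumai18 libraries and are not independent of each other. Over these genes, Baipimai had 20911 (40.1%) higher and 18517 (35.5%) lower at 48 h, and Shengsimai had 20405 (39.1%) higher and 20158 (38.6%) lower. The change of 25861 genes (49.5%) differed between Zhoumai18 and Baipimai, with 13434 (25.7%) more positive and 12427 (23.8%) more negative in Zhoumai18, and that of 29622 genes (56.8%) differed between Zhoumai18 and Shengsimai, with 15436 (29.6%) more positive and 14186 (27.2%) more negative. The direction of this split turned with the scaling: more positive calls were 51.9% against Baipimai and 52.1% against Shengsimai, but 35.3% and 33.5% with scaling by total counts, 42.1% and 42.5% with upper-quartile scaling, 41.2% and 42.9% with limma on log2(FPKM + 1), and 40.4% and 51.6% with only the groups compared in the fit. The median difference over all genes was 0.02 against each variety, and -0.16 against Baipimai and -0.25 against Shengsimai with total counts, so differences of that size have no sure sign.

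Genes past 2-fold were shared in part. On the same genes, 11522 (22.1%) were at least 2-fold higher and 7731 (14.8%) at least 2-fold lower at 48 h in Baipimai, and 12549 (24.0%) and 9580 (18.4%) in Shengsimai. Of the 12393 genes at least 2-fold higher in Zhoumai18, 7823 were also at least 2-fold higher in Baipimai (63.1% of the Zhoumai18 genes and 67.9% of those of Baipimai), 8042 in Shengsimai (64.9% and 64.1%), and 2603 in neither. Of the 9410 at least 2-fold lower, 5222 were so in Baipimai (55.5% and 67.5%), 5343 in Shengsimai (56.8% and 55.8%), and 3067 in neither. Genes past 2-fold in the opposite direction numbered 176 in Baipimai and 367 in Shengsimai among those higher in Zhoumai18, and 478 and 562 among those lower.

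The dormancy factor Vp-1A fell more in Zhoumai18 than in either resistant variety. It averaged 8.71 ± 0.226 FPKM at 48 h and 23.4 ± 1.57 FPKM at 0 h in Zhoumai18, 20.7 ± 0.891 FPKM at 48 h and 27.7 ± 1.57 FPKM at 0 h in Baipimai, and 24.7 ± 1.90 FPKM at 48 h and 25.6 ± 1.45 FPKM at 0 h in Shengsimai (SD, n = 3). The 0 h levels were thus close together and the 48 h levels set Zhoumai18 apart. In Shengsimai the FPKM means differed by less than their SD, while the fitted log2 fold change was -0.48. The log2 fold change was more negative in Zhoumai18 by 0.85 than in Baipimai (difference -0.85 ± 0.09, SE; adjusted p = 1.04e-08) and by 1.15 than in Shengsimai (difference -1.15 ± 0.09, SE; adjusted p = 2.21e-11). Both differences are larger than the shifts of the median with scaling. EM likewise fell more in Zhoumai18. It averaged 44.0 ± 2.95 FPKM at 48 h and 1428 ± 562 FPKM at 0 h there, against 131 ± 33.5 FPKM at 48 h and 1816 ± 275 FPKM at 0 h in Baipimai and 536 ± 16.85 FPKM at 48 h and 3149 ± 288 FPKM at 0 h in Shengsimai (differences -1.07 and -2.24, adjusted p = 0.00176 and 6.52e-08). The bZIP genes differed in other ways. ABFB fell less in Zhoumai18, with log2 fold changes of -1.76, against -2.30 in Baipimai and -2.28 in Shengsimai (differences 0.53 and 0.52, adjusted p = 1.49e-05 and 1.46e-05). EmBP-1a had log2 fold changes of -3.25 in Zhoumai18, against -3.58 in Baipimai (difference 0.33, adjusted p = 0.0503) and -2.77 in Shengsimai (difference -0.48, adjusted p = 0.00197).

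Among named genes of at least 10 FPKM in Zhoumai18, TaGlu1d and NAC4 had the most positive differences from Baipimai, and CWINV2SM and 6-FEH those from Shengsimai. TaGlu1d and 6-FEH passed the filter through the Zhoumai18 48 h libraries alone, which set the direction of their change there, so their differences are a description. 6-FEH averaged 45.1 ± 4.20 FPKM at 48 h and 0.283 ± 0.0902 FPKM at 0 h in Zhoumai18, 22.6 ± 0.953 FPKM at 48 h and 0.305 ± 0.0712 FPKM at 0 h in Baipimai, and 0.631 ± 0.0681 FPKM at 48 h and 0.0836 ± 0.0267 FPKM at 0 h in Shengsimai. Its rise was thus larger by 4.66 ± 0.55 on the log2 scale than in Shengsimai (SE; adjusted p = 3.81e-08). CWINV2SM rose in Zhoumai18 (14.7 ± 1.00 FPKM at 48 h and 1.31 ± 0.347 FPKM at 0 h) and in Baipimai (9.31 ± 0.808 FPKM at 48 h and 0.965 ± 0.119 FPKM at 0 h), but fell in Shengsimai (0.0962 ± 0.0595 FPKM at 48 h and 0.360 ± 0.112 FPKM at 0 h), a difference of 5.49 ± 0.35 (SE; adjusted p = 1.55e-13). NAC4 was 2.96 above the change in Baipimai, where it averaged 4.27 ± 0.470 FPKM at 48 h and 1.47 ± 0.125 FPKM at 0 h, and 3.72 above that in Shengsimai, where it stayed below 1 FPKM on average. TaSAG6, which rose in Zhoumai18, fell in Shengsimai to 31.2 ± 0.862 FPKM at 48 h, against 120.5 ± 8.08 FPKM at 0 h (difference 3.33 ± 0.09, SE). CPK1, a calcium-dependent protein kinase, averaged 10.8 ± 0.306 FPKM at 48 h and 1.91 ± 0.0515 FPKM at 0 h in Zhoumai18, and 5.19 ± 0.437 FPKM at 48 h and 3.76 ± 0.326 FPKM at 0 h in Baipimai (difference 2.19 ± 0.13, SE).

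By the same rule the most negative difference from Baipimai was that of SOD1.1 and the most negative from Shengsimai that of GluD3-3. The filter let in SOD1.1 through the Zhoumai18 0 h libraries alone, which set the direction of its change there, so its differences are a description. SOD1.1 fell by 5.198 on the log2 scale in Zhoumai18, whereas it averaged 17.04 ± 0.404 FPKM at 48 h and 9.03 ± 1.09 FPKM at 0 h in Baipimai and 11.2 ± 0.267 FPKM at 48 h and 7.57 ± 0.765 FPKM at 0 h in Shengsimai. The 0 h levels of the 3 varieties were within 2-fold of each other, and at 48 h Zhoumai18 alone was near 0; the differences were -5.76 ± 0.20 and -5.34 ± 0.20 (SE; adjusted p = 4.34e-19 and 2.35e-18). CBP3 was far apart already at 0 h: it averaged 48.3 ± 3.01 FPKM at 48 h and 218 ± 16.1 FPKM at 0 h in Zhoumai18, 33.8 ± 2.85 FPKM at 48 h and 18.7 ± 0.989 FPKM at 0 h in Baipimai, and 0.164 ± 0.0483 FPKM at 48 h and 0.192 ± 0.0144 FPKM at 0 h in Shengsimai. GluD3-3, which fell in Zhoumai18, was barely detected in Shengsimai and rose there to 3.33 ± 0.137 FPKM at 48 h, against 0.132 ± 0.0994 FPKM at 0 h (difference -5.69 ± 0.38, SE). TAc23 and TaXTH4 on 6A rose in all 3 varieties and less in Zhoumai18, where their 0 h levels were higher: TAc23 averaged 19.2 ± 1.17 FPKM at 48 h and 5.31 ± 1.56 FPKM at 0 h in Zhoumai18, against 14.7 ± 0.645 FPKM at 48 h and 0.373 ± 0.228 FPKM at 0 h in Baipimai. At 48 h the levels of TAc23 were thus closer together than at 0 h.

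**Figure D4:**
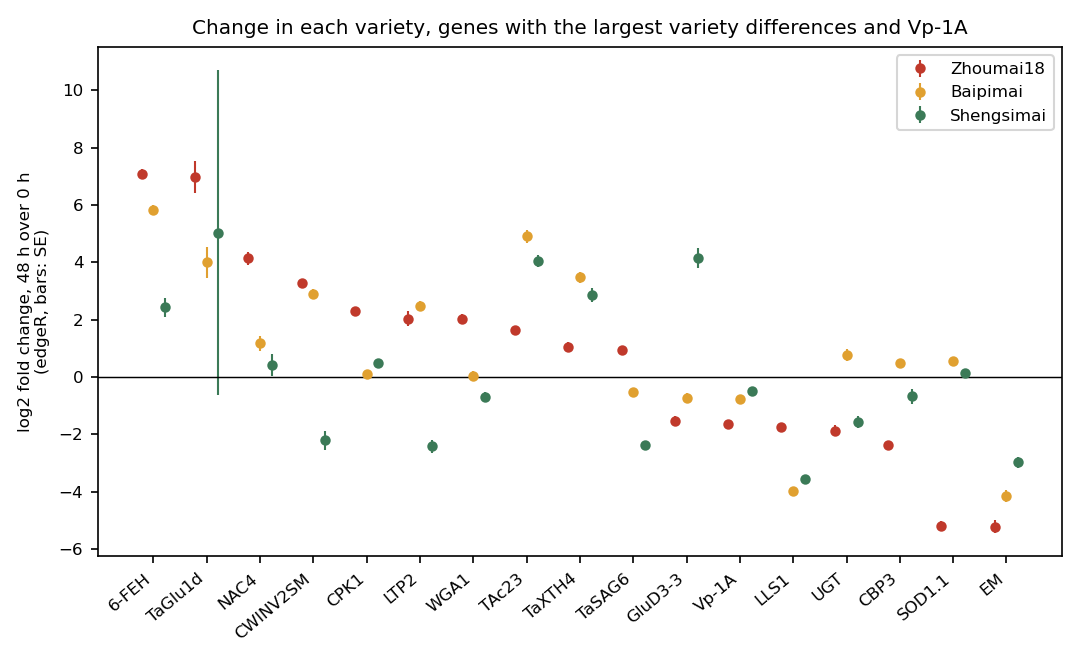
Log2 fold change, 48 h over 0 h, in Zhoumai18, Baipimai and Shengsimai of the named genes with the largest differences between varieties. Vp-1A is drawn too, although it was not picked by that rule. Bars are 1 SE. SOD1.1 fell by 5.198 in Zhoumai18 alone, and CWINV2SM rose by 3.28 in Zhoumai18 and fell in Shengsimai; the Shengsimai value of TaGlu1d, with almost no counts there, has a wide bar.

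Of the senescence genes, all 6 fell in both resistant varieties, while in Zhoumai18 4 fell and TaSAG6 rose. Other lists differed too. Of 9 inhibitors, 1 rose and 5 fell in Zhoumai18, against 4 and 0 in Baipimai and 7 and 1 in Shengsimai. Of 11 defence genes, 8 rose and 2 fell in Zhoumai18, against 9 and 2 in Baipimai and 3 and 5 in Shengsimai. The inhibitor and defence counts include members that passed the filter through one time alone. The counts were not tested as a list.

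Genes that moved together were also found side by side on the chromosomes. Taking pairs of tested genes with consecutive identifiers, of which there were 20811, the next gene was also at least 2-fold higher in 29.0% of cases where the first was, against 18.7% of all tested genes on chromosomes, and also at least 2-fold lower in 26.6%, against 18.5%. The shares over all genes also cover genes with no tested neighbour. Those among paired genes alone were not computed, so the contrast is only a rough one. Neighbours that are copies of each other share reads, and the share of such pairs was not tested. By chromosome, genes at least 2-fold higher made up 17.04% (1B) to 22.8% (2D) of the annotated genes tested, and genes at least 2-fold lower 16.96% (3A) to 22.3% (1D).

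The runs of neighbours described next were chosen after their values were seen, so they carry no test of their own. On 4A, all 8 genes from TraesCS4A01G391900 to TraesCS4A01G392600 were at least 2-fold higher, and their summed level was 1083 to 1214 FPKM at 48 h, against 15.6 to 27.9 FPKM at 0 h, and 51.1 to 54.4 FPKM at 96 h. On 7D, all 7 genes from TraesCS7D01G088200 to TraesCS7D01G088800 summed to 476 to 561 FPKM at 48 h, against 11.7 to 19.2 FPKM at 0 h, and on 7A all 6 from TraesCS7A01G092600 to TraesCS7A01G093100 to 281 to 357 FPKM at 48 h, against 18.4 to 21.3 FPKM at 0 h. These 3 runs peaked at 48 h in Zhoumai18 and Shengsimai, but in Baipimai their sums were higher at 96 h than at 48 h, for example 260 to 316 FPKM at 96 h on 7D, against 145 to 164 FPKM at 48 h.

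Another run behaved like the genes seen at one time only. All 10 genes from TraesCS2D01G533400 to TraesCS2D01G534300 summed to 144 to 207 FPKM at 48 h (7900 counts over the 3 libraries), against 0.0616 to 0.134 FPKM at 0 h (6 counts), and to 19.7 to 25.2 FPKM at 96 h. The same genes were expressed at every time in the other varieties, at 269 to 311 FPKM in Baipimai and 33.0 to 36.0 FPKM in Shengsimai already at 0 h. A run that fell lay on 3D, where all 7 genes from TraesCS3D01G114800 to TraesCS3D01G115400 summed to 2.38 to 3.86 FPKM at 48 h, against 150 to 184 FPKM at 0 h. They fell in each variety, to 6.98 to 7.69 FPKM at 48 h, against 310 to 344 FPKM at 0 h, in Baipimai and to 5.60 to 6.66 FPKM at 48 h, against 216 to 257 FPKM at 0 h, in Shengsimai.

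**Figure D5:**
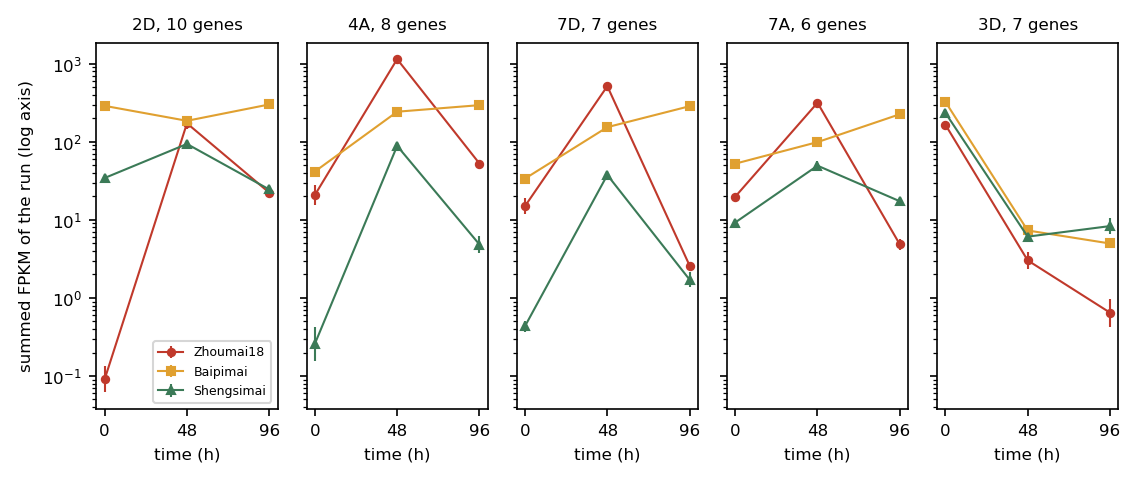
Summed FPKM (log axis) of 5 runs of neighbouring genes at 0, 48 and 96 h in each variety; points are midpoints and bars run from the lowest to the highest of 3 libraries. The run on 2D lies below 0.14 FPKM only in Zhoumai18 at 0 h, and the run on 3D falls between 0 and 48 h in all 3 varieties.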

How the data were processed

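Poly-A RNA of whole spikes was sequenced by a company, which also made the table. For all 27 libraries the authors deposited unnormalized read counts by gene. The FPKM values that the authors deposited in the same table correct for transcript length and sequencing depth. The aligner, the counter and the genome build are not given in the sources used here. In the table, 1 malformed line was left out.

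Groups follow the sample labels (3 libraries each). Genes with at least 1 FPKM in at least 3 of the 6 Zhoumai18 libraries at 48 h and 0 h were tested on the counts with the quasi-likelihood F test of edgeR 4.0.16 under R 4.3.3, TMM scaling, 1 mean for each of 9 groups, and Benjamini-Hochberg adjustment within each comparison at a threshold of 0.05. Standard errors of fold changes were taken from the F statistic. Differences between varieties were contrasts in the same fit. FPKM served for levels and for the filter. A fold against a group with no counts was set against 3 counts over that group. The fit was checked on simulated data in which few genes changed, in the Zhoumai18 48 h group alone. Most genes moved in the real data, so the check does not cover the scaling there. Replicates differed by more than sampling noise (chi-square per degree of freedom 4.44 to 16.2), so none was merged.

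Names came from the best-hit symbols of the deposited table or, by identifier, from the RefSeq gene table of the IWGSC assembly, which supplied 18 of 253 names before symbols that are only locus tags were dropped. Named genes were the members of gene lists, the 10 largest rises and the 10 largest falls among named genes with a higher mean of at least 10 FPKM and libraries that did not overlap, the 5 most abundant genes at each time, the 5 largest differences from each other variety in each direction by the same rule, 2 unnamed loci that rose and 2 that fell, and the genes the study names on 3D. Exceptions are stated. The members and lists were chosen with earlier results of these data known. Lists with no tested member (dormancy genes, lipid mobilisation, green tissue) have no count of calls.

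Alternatives were total-count and upper-quartile scaling, DESeq2 1.42.0, limma 3.58.1 on log2(FPKM + 1) and log2(FPKM + 0.1), no filter, a filter of 5 FPKM, the replicate number as a block, a fit of only the groups compared, and leaving out each library. Comparisons made by the authors were not used.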

Additional observations from a re-analysis of the deposited data

Results flagged for a closer look

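The results given here are changes from 0 to 48 h that differed between Zhoumai18 and another variety in a test of the difference. Genes that the filter let in through the Zhoumai18 48 h or 0 h libraries alone are an exception. The filter set the direction of their change there, so their differences are a description. The counts over all genes include them. The genes named by rule were picked on the same Zhoumai18 libraries that the test used. Against Baipimai the change was more positive in Zhoumai18 in 13434 genes and more negative in 12427, and against Shengsimai more positive in 15436 and more negative in 14186, with a split that turned with the scaling.

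Against Baipimai, the most positive log2 differences among named genes of at least 10 FPKM in Zhoumai18, with libraries of the 2 times that did not overlap, were those of TaGlu1d (2.98), NAC4 (2.96), LLS1 (2.22), CPK1 (2.19) and WGA1 on 1A (1.98). LLS1 fell in both varieties, to 6.53 FPKM at 48 h, against 19.0 FPKM at 0 h, in Zhoumai18 and to 1.33 FPKM at 48 h, against 16.4 FPKM at 0 h, in Baipimai. WGA1, wheat germ agglutinin, averaged 91.2 ± 3.97 FPKM at 48 h and 19.5 ± 9.11 FPKM at 0 h in Zhoumai18, and 127 ± 12.8 FPKM at 48 h and 96.5 ± 3.33 FPKM at 0 h in Baipimai, so its difference lies in the 0 h level. TaGlu1d was low in Baipimai too, with 15.6 ± 2.91 FPKM at 48 h and 0.765 ± 1.24 FPKM at 0 h. The most negative by the same rule were SOD1.1 (-5.76), TAc23 (-3.26), CBP3 (-2.88), UGT (-2.65) and TaXTH4 on 6A (-2.43). Of the genes named against Baipimai, the filter let in TaGlu1d through the 48 h libraries alone and SOD1.1 through the 0 h libraries alone. The differences of TaGlu1d and SOD1.1 are therefore a description and no tested result. UGT, named as a glycosyltransferase, fell in Zhoumai18 (8.13 ± 1.19 FPKM at 48 h and 26.1 ± 11.3 FPKM at 0 h) and rose in Baipimai (6.81 ± 0.318 FPKM at 48 h and 3.13 ± 0.362 FPKM at 0 h). TaXTH4 averaged 42.7 ± 4.88 FPKM at 48 h and 2.97 ± 0.463 FPKM at 0 h in Baipimai.

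Against Shengsimai, the most positive by the same rule were CWINV2SM (5.49), 6-FEH (4.66), LTP2 on 3B (4.45), NAC4 (3.72) and TaSAG6 (3.33). LTP2 rose in Zhoumai18 (11.7 ± 0.977 FPKM at 48 h and 2.45 ± 0.755 FPKM at 0 h) and fell in Shengsimai (4.83 ± 0.756 FPKM at 48 h and 19.1 ± 1.49 FPKM at 0 h). The most negative by it were GluD3-3 (-5.69), SOD1.1 (-5.34), TAc23 (-2.40), EM (-2.24) and TaXTH4 (-1.79). Here the filter let in SOD1.1 through the 0 h libraries alone and 6-FEH through the 48 h libraries alone. The differences of SOD1.1 and 6-FEH are therefore a description and no tested result. Vp-1A differed by -0.85 from Baipimai and by -1.15 from Shengsimai.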

How the results depend on the processing

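The counts of calls moved mostly with the filter. Without a filter 33938 genes were higher and 29700 lower at 48 h, and with a filter of 5 FPKM 10583 were higher and 10577 lower, as fewer genes were then tested. With the filter of 5 FPKM, 6115 differences from Baipimai and 6724 from Shengsimai were more positive, and 9147 from Shengsimai more negative; total-count scaling gave 10262 more positive differences from Shengsimai. With single libraries left out, 21508 to 21890 genes were higher and 18813 to 19172 lower, differences from Baipimai were 12422 to 13226 more positive and 11634 to 12218 more negative, and those from Shengsimai 14754 to 15170 and 13289 to 13799. DESeq2 kept 98.2% of the calls in their direction, total-count scaling 92.5%, limma on log2(FPKM + 1) 92.0% and limma on log2(FPKM + 0.1) 91.2%.

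Same-numbered libraries of the 2 times deviated together with r of 0.133, 0.0239 and 0.0251, so the numbers do not pair the spikes. With the replicate number as a block, 22296 genes were higher and 19591 lower. Differences were then 13488 and 12443 from Baipimai, and 15436 and 14214 from Shengsimai.

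Of 132 values of named genes, 118 kept call and direction in every alternative run. Reversals were those of gstf1 on 3B (0.18 with total-count scaling, 0.20 with limma and either pseudocount, from a value near 0), Glc1 (0.0152 and 0.0164 with limma and a pseudocount of 1 and 0.1), and WGA1 on 1B, whose log2 fold change of -0.08 ran from -0.31 to 0.41 with single libraries left out and was called (adjusted p = 0.000577) without 0 h replicate 2. That library held 116 FPKM of WGA1 on 1B, against 56.6 and 49.4 FPKM in the other two. The cause was not tested. Genes below 1 FPKM, such as the gibberellin 20-oxidases, were not tested at this limit.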

Other observations

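New loci stood apart from annotated genes. Of the 9376 new loci tested, 4324 (46.1%) were at least 2-fold higher at 48 h and 1497 (16.0%) at least 2-fold lower, whereas of 42816 annotated genes 8069 (18.8%) were higher and 7913 (18.5%) lower. At least 2-fold higher were 32.0% of the same new loci and 19.9% of the annotated genes in Baipimai, and 50.4% and 18.3% in Shengsimai. These shares include genes that passed the filter through one time alone, whose direction in Zhoumai18 was set by the filter. How many of the new loci were of that kind was not counted, so the size of the contrast with annotated genes is uncertain. What the new loci are was not tested.

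Other named genes, all chosen after their values were seen, add to the picture of 48 h. The peroxidase gene prx had 5.28, 4.84 and 5.32 FPKM at 48 h and no counts at 0 h (at least 244-fold higher), and NAC7 averaged 2.84 FPKM at 48 h with no counts at 0 h (at least 120.5-fold higher). Both passed the filter through the 48 h libraries alone. CAD, an enzyme of lignin synthesis, averaged 4.78 ± 0.170 FPKM at 48 h and 0.956 ± 0.128 FPKM at 0 h. The vacuolar antiporter genes NHX2 rose on 2A, 2B and 2D by 0.48, 0.46 and 0.56 on the log2 scale. PDI2, a protein disulfide isomerase of the secretory pathway, averaged 312 ± 13.6 FPKM at 48 h and 162 ± 2.54 FPKM at 0 h, a rise seen in all 3 varieties. In the opposite direction, the splicing factor SRp30 averaged 13.3 ± 0.366 FPKM at 48 h and 43.3 ± 0.778 FPKM at 0 h, and the superoxide dismutase SOD3.2 averaged 67.9 ± 4.72 FPKM at 48 h and 141 ± 8.33 FPKM at 0 h.

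The WRKY genes WRKY1A and WRKY1B were lower at 48 h in Zhoumai18 and higher in Baipimai. WRKY1B averaged 0.444 ± 0.128 FPKM at 48 h and 4.96 ± 1.98 FPKM at 0 h in Zhoumai18, a log2 fold change of -3.64, against 4.76 in Baipimai and 0.09 in Shengsimai. WRKY1A averaged 0.432 ± 0.0465 FPKM at 48 h and 1.86 ± 0.770 FPKM at 0 h (log2 fold change -2.27, against 4.33 in Baipimai and 5.32 in Shengsimai). Both were chosen for this pattern and passed the filter through the 0 h libraries alone, so their values are a description with no test.

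Genes with 0 counts at one time numbered 509 at 0 h and 296 at 48 h among those tested. At the limit, 10736 genes had 1 FPKM in exactly 3 of the 6 libraries, with a median mean level of 1.18 FPKM, and 2635 genes had it in exactly 2 and were left out, with a median of 0.762 FPKM.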
